A study of Mus musculus with 13 samples.

Results

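The genes described here encode potassium channels, chloride channels and exchangers of the CLC family, voltage-gated calcium channels, and TRP cation channels, together with the auxiliary subunits that share their names. Members were all genes of the deposited normalised table whose symbol starts with Kcn, Clcn or Cacn, or with Trpc, Trpm or Trpv and a digit, except Kcnn4. This gave 86 of 17957 entries, and no measured value other than presence in that table entered the choice. A further 70 genes of the count table met the same name rule, are not in the normalised table and had at most 5 reads in any library. Of the 86 members, 53 passed the filter on low counts and were tested, and 33 did not.

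RNA of the submandibular salivary gland was sequenced in 13 libraries. The mice were aged 1 year, their strain is given as CH3, and tissue was taken 300 days after treatment. PreIR-NTN (5 libraries) was irradiated 10 days after the gland received Cere-120, an adeno-associated virus vector carrying neurturin (AAV2-NRTN), a growth factor of parasympathetic neurons. PreIR-GFP (5 libraries) was irradiated 10 days after the same type of vector carrying green fluorescent protein (AAV2-GFP). NonIR (3 libraries) was not irradiated. The labels do not say if NonIR mice had a vector, so irradiation and vector cannot be told apart in either comparison with NonIR. No label says that replicates are different animals, and p-values therefore measure only the spread between these libraries, which may be technical.

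Salivary epithelium makes fluid by moving chloride into the lumen, and sodium and water follow. Potassium channels keep the membrane potential that drives chloride exit and let potassium into saliva, calcium channels and release channels set the calcium signal that opens both, and CLC exchangers support the acidification of endosomes and lysosomes. TRP channels respond to calcium stores, cell volume and oxidative stress, and in mice the loss of Trpm2 is known to protect submandibular fluid secretion after irradiation.

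Libraries held 9724304 to 16771004 reads, and the 10 highest genes took 29.7% of reads in PreIR-GFP 1 and 55.5% in PreIR-GFP 3, the ends of the range. Acinar and granular tubule markers were high in all 13 libraries, with summed levels of 35646 to 89943 and 13168 to 41115 CPM (read counts after scaling every library to equal size with TMM). PreIR-GFP 1 stood apart, with the lowest of both sums, the highest pericyte marker sum at 782 CPM against 219 to 472 CPM elsewhere, and the highest fibroblast sum at 369 CPM against 138 to 279 CPM elsewhere. Rgs5 alone had 753 CPM of that pericyte sum, and Notch3, Higd1b, Cspg4 and Pdgfrb of the same list were not highest in PreIR-GFP 1. Most of its acinar sum was Prol1 (29700 CPM) and Pip (4538 CPM), and the list did not move as a whole. Aqp5, Bhlha15 and Lpo were lowest in PreIR-GFP 1, but Prol1 was lower in PreIR-NTN 5 (27288 CPM). Slc12a2 was highest in PreIR-GFP 1 (400 CPM), and Xbp1 (277 CPM) was near the top of its range. Skeletal muscle markers summed to 192 CPM in PreIR-GFP 2 and to 2.60 to 4.46 CPM elsewhere. No reads were assigned to the EGFP or AAV2 entries of the count table in any library, which allows up to 3 reads in each.

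No tested channel gene passed an adjusted p of 0.05 in any of the 3 comparisons by edgeR's quasi-likelihood test. Across all 14727 genes tested, 5 passed for PreIR-GFP against NonIR (0.034%), 3 for PreIR-NTN against NonIR (0.0204%) and 3 for PreIR-NTN against PreIR-GFP (0.0204%). At an unadjusted p under 0.05, 6 of 53 members (11.3%) stood out for PreIR-GFP against NonIR, where 8.78% of all genes did. The count was 2 of 53 (3.77%) for PreIR-NTN against NonIR, where 7.97% of all genes did, and 6 of 53 (11.3%) for PreIR-NTN against PreIR-GFP, where 6.08% of all genes did. The 3 comparisons share libraries pairwise and are not independent of each other.

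The members went both ways in about equal number. The log2 fold change was above 0 for 26 of 53 members in PreIR-GFP against NonIR (52.7% of all genes), for 26 in PreIR-NTN against NonIR (50.5%) and for 28 in PreIR-NTN against PreIR-GFP (47.3%). The median absolute log2 fold change of members was 0.23, 0.22 and 0.17 in those comparisons, beside 0.19, 0.19 and 0.15 over all genes tested. Kcnmb2 at -1.40 (-2.33 to -0.82 over 18 alternatives) and Kcne3 at 1.01 were the ends for PreIR-GFP against NonIR. For PreIR-NTN against NonIR the ends were Kcnmb2 at -1.08 and Cacnb2 at 0.92, and for PreIR-NTN against PreIR-GFP they were Kcnk3 at -0.76 and Cacnb2 at 1.31.

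**Figure D1:**
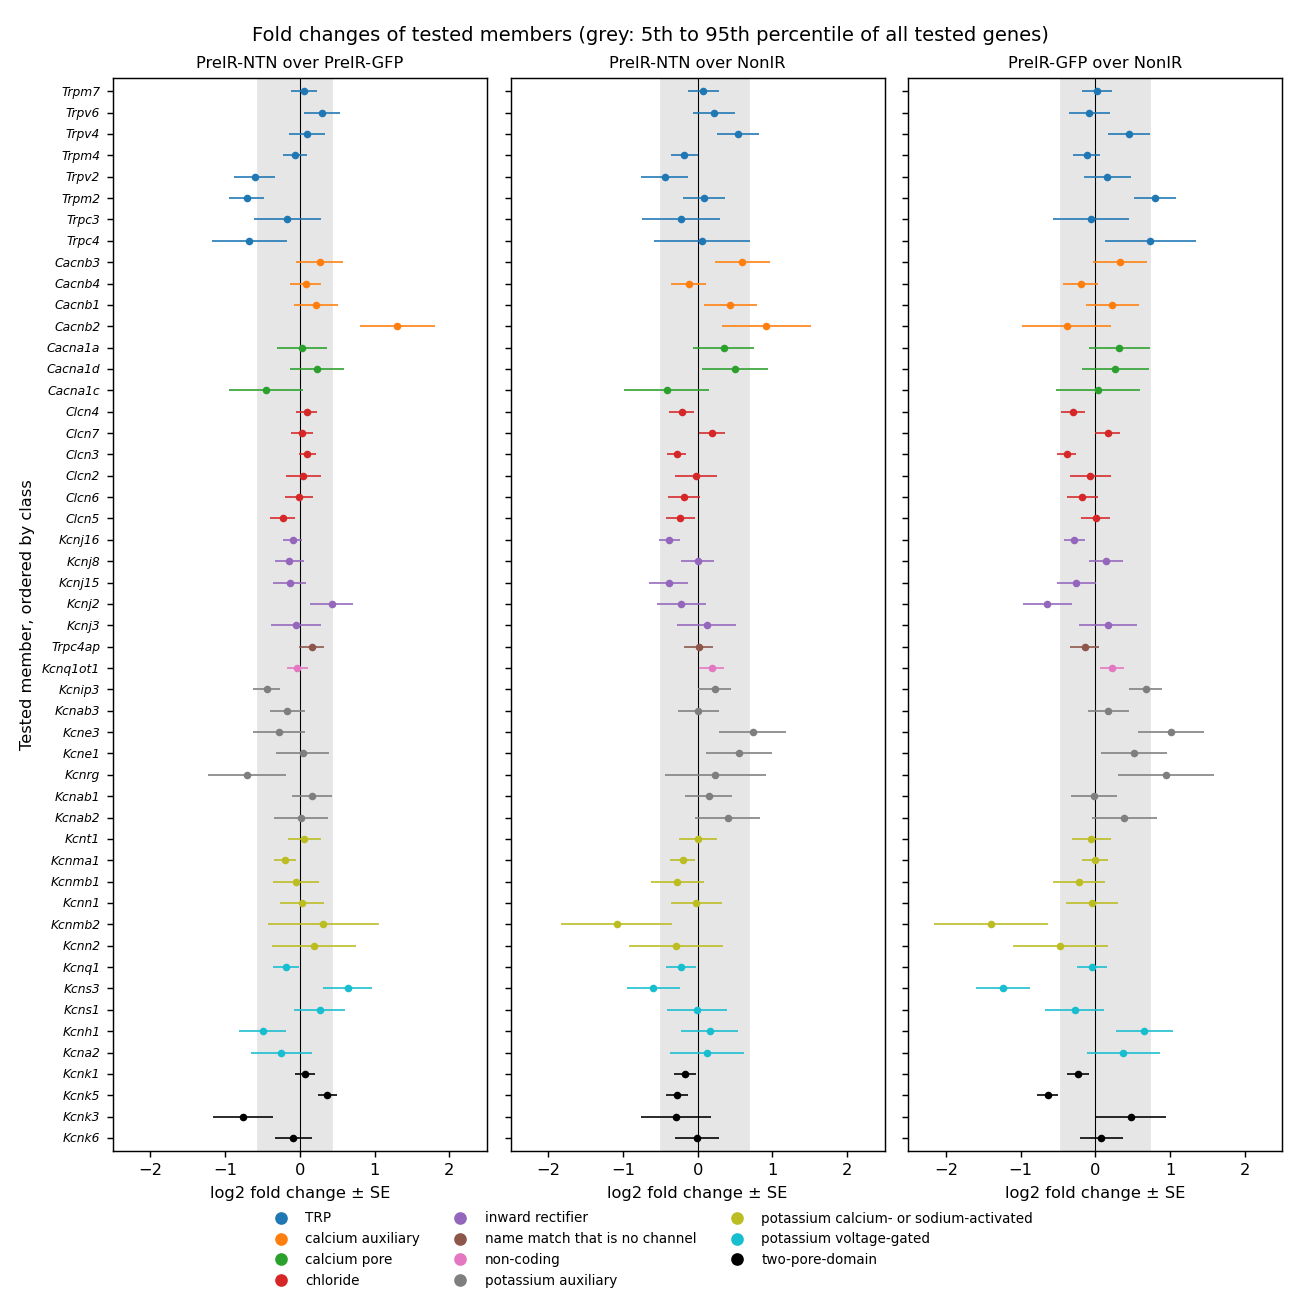
Log2 fold change with its standard error (x axis) for 50 of the 53 tested members (y axis, ordered and coloured by class) in the 3 comparisons; the grey band runs from the 5th to the 95th percentile of all 14727 genes tested. Outside the band lie 7 of those shown for PreIR-NTN over PreIR-GFP, 4 for PreIR-NTN over NonIR and 9 for PreIR-GFP over NonIR, and none passed after adjustment in edgeR.

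Few members were abundant. Levels between genes are given as RPKM, CPM divided by the length of a gene's merged exons in kilobases, as the mean of the 3 group means. Only 16 members exceeded 1 RPKM and 8 exceeded 5 RPKM. Among them were Kcnk1 (26.6 RPKM), Cacnb3 (12.1 RPKM), Kcnk5 (8.25 RPKM) and Clcn4 (7.42 RPKM). Trpc4ap, at 11.4 RPKM, meets the name rule but encodes a protein associated with Trpc4 and no channel. Kcnj16 (5.85 RPKM), Clcn7 (5.00 RPKM), Clcn3 (4.07 RPKM) and Trpm7 (3.88 RPKM) were lower. Kcnk5 and Clcn4 overlapped over the libraries, so their order is not firm.

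**Figure D2:**
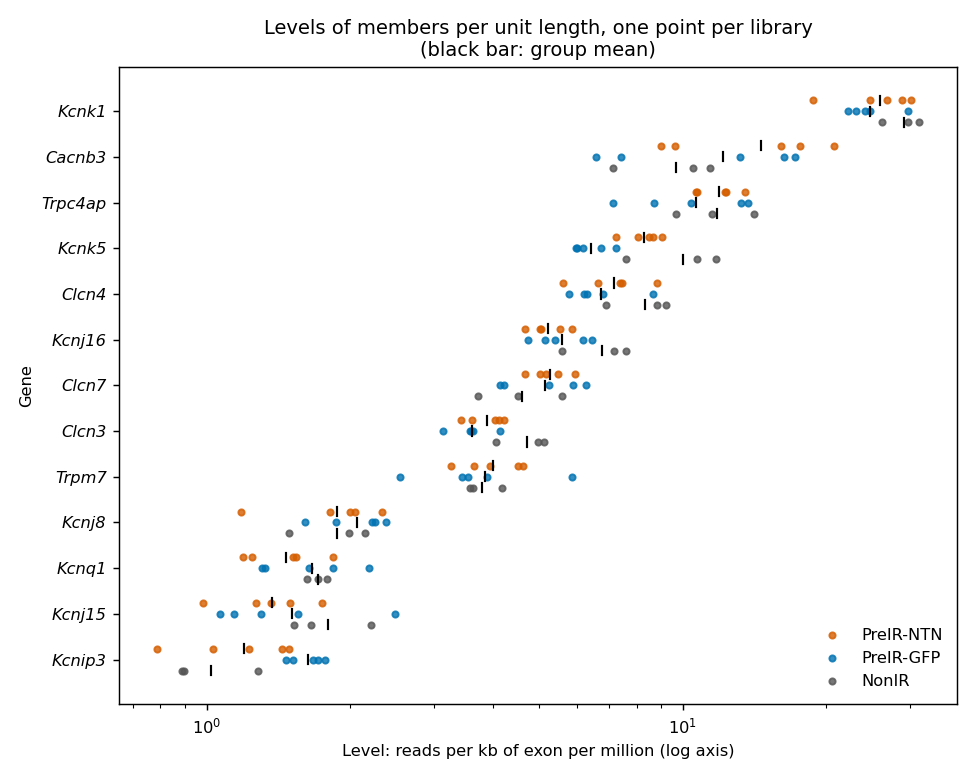
Level in RPKM (x axis, log scale) of 13 abundant members (y axis), with 1 point per library coloured by group and a black bar at each group mean. Kcnk1 lies above the other members shown in nearly every library, and the 3 groups overlap for most genes.

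Two-pore-domain potassium channels, which carry background potassium current, summed to 35.3 ± 5.27 RPKM in PreIR-NTN, 32.7 ± 3.45 RPKM in PreIR-GFP and 40.4 ± 2.88 RPKM in NonIR (SD, n = 5, 5 and 3). Kcnk1 (TWIK-1; GRCm38 chr8:125995170-126030685, plus strand) made up most of this, with 25.9 ± 4.49, 24.7 ± 2.93 and 29.1 ± 2.64 RPKM in the same order of groups. Kcnk1 overlapped between all groups, and its log2 fold changes were -0.17 for PreIR-NTN and -0.23 for PreIR-GFP against NonIR.

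Kcnk5 (TASK-2; ENSMUSG00000023243, GRCm38 chr14:20140057-20181809, minus strand), a potassium channel opened by alkaline pH, had the lowest adjusted p of any member. Its level was 30.8, 29.4, 27.4, 28.9 and 24.6 CPM in the PreIR-NTN libraries 1 to 5. In PreIR-GFP 1 to 5 it was 20.4, 21.1, 20.3, 24.7 and 22.9 CPM, and in NonIR 1 to 3 it was 25.9, 40.0 and 36.5 CPM. Every PreIR-GFP library was below every NonIR library, by a narrow margin to NonIR 1, and PreIR-NTN overlapped both. For PreIR-GFP against NonIR the log2 fold change was -0.64 (SE 0.14), with an adjusted p of 0.186 in edgeR's quasi-likelihood test, so it did not pass. DESeq2 on the same counts gave -0.65 and an adjusted p of 0.0167, the one call of a member in any alternative. In that comparison DESeq2 called 68 of 14727 genes, where edgeR called 5. Over the 23 alternatives of this value the log2 fold change ran from -0.79 to -0.51 and the adjusted p, by edgeR, DESeq2 or limma, from 0.0167 to 0.657. For PreIR-NTN against PreIR-GFP, Kcnk5 had a log2 fold change of 0.37 (SE 0.13, adjusted p = 0.668, edgeR), and for PreIR-NTN against NonIR -0.27 (SE 0.14, adjusted p = 0.680, edgeR).

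The start-site windows of Kcnk5 and Trpm2 are shown because these members had the lowest adjusted p against NonIR in PreIR-GFP and against PreIR-GFP in PreIR-NTN. Each spans 250 bases before to 50 after the RefSeq start on GRCm38.p6 and reads along the gene's strand, and capitals mark the motif GGGCGG (a GC box), searched on both strands.
Kcnk5, chr14:20181733-20182032, minus strand: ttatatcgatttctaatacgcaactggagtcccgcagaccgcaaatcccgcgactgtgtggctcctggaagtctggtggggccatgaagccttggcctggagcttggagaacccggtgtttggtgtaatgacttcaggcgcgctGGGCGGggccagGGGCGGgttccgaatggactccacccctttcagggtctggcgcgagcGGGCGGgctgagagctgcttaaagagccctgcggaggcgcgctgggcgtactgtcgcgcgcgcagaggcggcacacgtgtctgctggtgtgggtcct
Trpm2, chr10:77969823-77970122, minus strand: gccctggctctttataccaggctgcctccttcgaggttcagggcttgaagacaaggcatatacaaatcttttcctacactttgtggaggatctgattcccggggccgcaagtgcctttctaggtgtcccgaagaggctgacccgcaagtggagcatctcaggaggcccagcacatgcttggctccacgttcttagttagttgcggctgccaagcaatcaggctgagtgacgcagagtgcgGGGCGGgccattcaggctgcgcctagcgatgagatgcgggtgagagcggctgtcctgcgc
The Kcnk5 window holds 3 GC boxes and 26 CG pairs, and the Trpm2 window holds 1 GC box, 15 CG pairs and 1 TATAAA match on either strand. Of 32851 RefSeq windows of this length, 35.7% hold GGGCGG and 13.6% hold TATAAA, and the median has 7 CG pairs. Of the 86 members, 67 have a window in that table.

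Kcnk3 (TASK-1), a potassium channel closed by acid, varied widely within groups. Its level was 2.58, 2.23, 2.85, 1.38 and 0.952 CPM in PreIR-NTN 1 to 5, against 2.39, 1.85, 5.08, 2.43 and 5.23 CPM in PreIR-GFP 1 to 5. In NonIR 1 to 3 it was 3.49, 0.844 and 2.94 CPM. PreIR-GFP 3 and 5 stood above all other libraries, and the groups overlapped (log2 fold change -0.76, SE 0.40, for PreIR-NTN against PreIR-GFP).

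Inward rectifier potassium channels summed to 9.80 ± 0.383 RPKM in PreIR-NTN, 10.6 ± 1.19 RPKM in PreIR-GFP and 12.2 ± 1.79 RPKM in NonIR. Kcnj16 (Kir5.1), which forms channels with Kir4 subunits, was the highest of them. It had 19.8, 19.7, 18.3, 21.8 and 23.1 CPM in PreIR-NTN 1 to 5 and 21.2, 24.3, 20.2, 25.4 and 18.6 CPM in PreIR-GFP 1 to 5. NonIR 1 to 3 had 29.8, 28.2 and 22.0 CPM. NonIR 1 and 2 were above all irradiated libraries, and NonIR 3 was within their range. The log2 fold change for PreIR-NTN against NonIR was -0.38 (SE 0.14, adjusted p = 0.535, edgeR), the lowest adjusted p of any member in that comparison. Of its possible Kir4 partners, Kcnj15 (Kir4.2) had 1.56 RPKM and Kcnj10 (Kir4.1) was below the filter at 0.0824 RPKM; Kcnj10 was chosen after its value was seen.

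Kcnj8 (Kir6.1), a pore subunit of ATP-sensitive potassium channels known from vascular smooth muscle and pericytes, had 1.88 ± 0.430 RPKM in PreIR-NTN, 2.07 ± 0.321 RPKM in PreIR-GFP and 1.88 ± 0.343 RPKM in NonIR. Its partner Abcc9 (SUR2), which is also one of the pericyte markers used, had 9.81 ± 2.88 CPM in PreIR-NTN, 11.6 ± 4.74 CPM in PreIR-GFP and 5.39 ± 0.578 CPM in NonIR. Neither Abcc9 comparison with NonIR passed (adjusted p = 0.535 for PreIR-NTN and 0.337 for PreIR-GFP, edgeR). In these bulk samples, a change in the number of cells of a type and a change in RNA per cell cannot be told apart. Kcnj2 (Kir2.1), the classical strong inward rectifier, had log2 fold changes of -0.65 (SE 0.33) for PreIR-GFP against NonIR and 0.43 (SE 0.29) for PreIR-NTN against PreIR-GFP, with overlapping groups in both.

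The voltage-gated class had 17 members, of which 6 were tested and 11 had too few reads. Kcnq1 was highest at 1.61 RPKM, with 1.47 ± 0.261 RPKM in PreIR-NTN, 1.66 ± 0.373 RPKM in PreIR-GFP and 1.71 ± 0.0802 RPKM in NonIR. This channel pairs with Kcne subunits in epithelia. The antisense transcript Kcnq1ot1, a non-coding RNA of the same imprinted locus, had 0.662 RPKM over its long exon and shares 121 exonic bases with Kcnq1 on the opposite strand; without strand information, reads there cannot be told apart.

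Kcns3 (Kv9.3) is a silent subunit that modifies Kv2 channels. It had 2.44, 1.70, 1.96, 1.81 and 2.06 CPM in PreIR-NTN 1 to 5, against 0.943, 1.25, 0.391, 2.36 and 1.37 CPM in PreIR-GFP 1 to 5. NonIR 1 to 3 had 2.40, 3.63 and 3.02 CPM. All PreIR-GFP libraries were below all NonIR libraries, though PreIR-GFP 4 came within a small margin of NonIR 1. For PreIR-GFP against NonIR the log2 fold change was -1.23 (SE 0.36, adjusted p = 0.327, edgeR), and it was -1.57 without PreIR-GFP 4.

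Kcnh1 (EAG1), a voltage-gated channel known from neurons, had log2 fold changes of 0.65 (SE 0.38) for PreIR-GFP against NonIR and -0.49 (SE 0.32) for PreIR-NTN against PreIR-GFP. PreIR-GFP 5 was the highest library at 4.28 CPM, and the rest of its group had 1.58 to 2.19 CPM. Over 23 alternatives the value for PreIR-NTN against PreIR-GFP ran from -0.65 to -0.15.

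No auxiliary potassium subunit passed the test against NonIR. With the beta subunits of the large-conductance channel included, the log2 fold change was above 0 for 7 of 9 tested members in PreIR-NTN against NonIR, where 50.5% of all genes were, and for 6 of 9 in PreIR-GFP against NonIR, where 52.7% were. Both tested beta subunits, Kcnmb1 and Kcnmb2, were below 0 in these comparisons; they are described with the calcium-activated channels. The summed level of the other auxiliary subunits was 3.74 ± 0.454 RPKM in PreIR-NTN, 4.65 ± 0.854 RPKM in PreIR-GFP and 3.01 ± 0.168 RPKM in NonIR. Kcnip3 (KChIP3), a calcium-binding subunit of Kv4 channels also known as the transcriptional repressor DREAM, had 2.80, 5.10, 3.67, 5.29 and 4.36 CPM in PreIR-NTN 1 to 5. It had 6.09, 5.21, 5.94, 5.39 and 6.30 CPM in PreIR-GFP 1 to 5 and 3.15, 4.56 and 3.19 CPM in NonIR 1 to 3. Every PreIR-GFP library was above every NonIR library, and PreIR-NTN overlapped both. For PreIR-GFP against NonIR the log2 fold change was 0.67 (SE 0.22, adjusted p = 0.377, edgeR), and for PreIR-NTN against PreIR-GFP it was -0.44 (SE 0.19, adjusted p = 0.760, edgeR).

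Kcne3, a small membrane subunit that holds Kcnq1 open, had 1.00, 0.645, 1.38, 1.31 and 1.59 CPM in PreIR-NTN 1 to 5. In PreIR-GFP 1 to 5 it had 2.61, 1.45, 1.02, 1.42 and 0.654 CPM, and in NonIR 1 to 3 it had 0.616, 0.844 and 0.654 CPM. PreIR-GFP 1, the library that stood apart, was the highest, and PreIR-GFP 5 lay within NonIR. PreIR-GFP against NonIR gave a log2 fold change of 1.01 (SE 0.44, adjusted p = 0.529, edgeR), and without PreIR-GFP 1 it was 0.67.

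Between PreIR-GFP and NonIR, tested members whose libraries did not overlap were Kcnip3, higher, and Kcnk5 and Kcns3, lower. These are 3 of 53 tested members (5.66%), where 5.14% of all genes tested did not overlap. No tested member separated PreIR-NTN from NonIR, where 6.52% of all genes tested did, or PreIR-NTN from PreIR-GFP, where 1.11% did. Members that were not tested are left out of these counts. Of the 15 cell type marker sums, 2 separated PreIR-GFP from NonIR. Schwann cell markers summed to 57.4 to 71.2 CPM in PreIR-GFP against 37.6 to 51.8 CPM in NonIR, and PreIR-NTN, with a mean of 62.6 CPM, did not overlap NonIR either. Sublingual and parotid gland markers summed to 20402 to 31521 CPM in PreIR-GFP against 10281 to 18531 CPM in NonIR. Nearly all of that sum was 1 gene, Bpifa2, with 31507 CPM in PreIR-GFP 1 and 10247 CPM in NonIR 1. Of the 3 tested genes of that list, 2 had a log2 fold change above 0 and 1 below 0. Amy1 lay the other way, at 12.5 to 38.5 CPM in PreIR-GFP against 32.2 to 273 CPM in NonIR. The sum therefore does not show a shift of the list as a whole. The part of either marker list in the values of Kcnip3, Kcnk5 and Kcns3 was not tested.

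**Figure D3:**
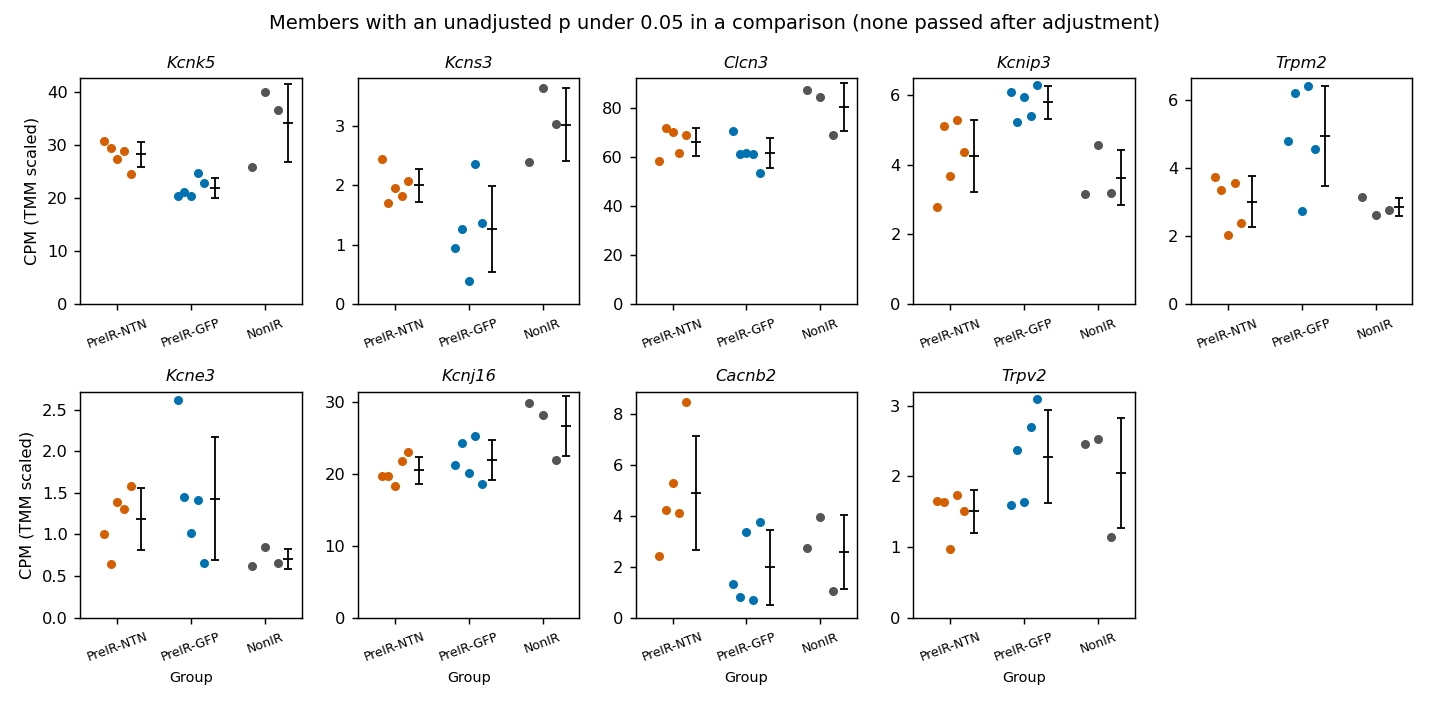
CPM scaled by TMM (y axis, from 0) in each library for 9 members with an unadjusted p under 0.05 in at least 1 comparison, by group (x axis), with the mean and SD in black. PreIR-GFP and NonIR do not overlap for Kcnk5, Kcns3 and Kcnip3 and overlap for the other members shown, and none passed after adjustment in edgeR.

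The calcium- or sodium-activated potassium channels among the members were low, and none exceeded 1 RPKM. Kcnn4, the intermediate-conductance calcium-activated channel that the name rule leaves out, was far higher, at 49.4 RPKM in PreIR-NTN, 46.0 RPKM in PreIR-GFP and 40.4 RPKM in NonIR (log2 fold change against NonIR 0.29, SE 0.16, for PreIR-NTN and 0.19, SE 0.16, for PreIR-GFP, neither past the test in edgeR). All 6 tested members, 4 pore subunits and 2 beta subunits, had a log2 fold change below 0 in PreIR-GFP against NonIR, where 52.7% of all genes were above 0, and their median was -0.14. Kcnma1, the large-conductance channel that lets potassium into saliva, had 0.664 ± 0.113 RPKM in PreIR-NTN, 0.760 ± 0.109 RPKM in PreIR-GFP and 0.762 ± 0.0891 RPKM in NonIR; it was chosen after its values were seen. Kcnmb2, a beta subunit of that channel near the filter edge with 74 reads in all, had 0.364 ± 0.295 CPM in PreIR-NTN, 0.269 ± 0.368 CPM in PreIR-GFP and 0.760 ± 0.158 CPM in NonIR. PreIR-NTN 5 and PreIR-GFP 5 reached 0.872 and 0.892 CPM, within NonIR. Kcnn2, a small-conductance channel, was the next kept member at the edge (95 reads), followed by Kcnrg (101 reads), while Trpv3 (118 reads) and Kcnk2 (99 reads) were just outside.

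All 8 members of the CLC family of chloride channels and exchangers were tested. Clcn3, a chloride-proton exchanger of endosomes and secretory vesicles, had 58.4, 71.8, 70.1, 61.6 and 68.9 CPM in PreIR-NTN 1 to 5. In PreIR-GFP 1 to 5 it had 70.6, 61.4, 61.8, 61.1 and 53.4 CPM, and in NonIR 1 to 3 it had 87.4, 84.7 and 69.1 CPM. NonIR 1 and 2 were above all irradiated libraries and NonIR 3 was within them. It was the one member with an unadjusted p under 0.05 against NonIR in both irradiated groups, which share those controls. The log2 fold changes were -0.28 (SE 0.13, adjusted p = 0.622, edgeR) for PreIR-NTN and -0.38 (SE 0.13, adjusted p = 0.375, edgeR) for PreIR-GFP. Without NonIR 1 they were -0.20 and -0.31.

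Clcn4, a related endosomal exchanger, had 7.18 ± 1.19 RPKM in PreIR-NTN, 6.75 ± 1.14 RPKM in PreIR-GFP and 8.32 ± 1.24 RPKM in NonIR. Clcn7, the lysosomal exchanger, had 5.25 ± 0.487, 5.15 ± 0.957 and 4.60 ± 0.933 RPKM in the same order of groups. Both overlapped between groups in every comparison.

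For voltage-gated calcium channels, auxiliary transcripts far outnumbered pore transcripts per unit length. Pore subunits (5 members, 3 tested) summed to 0.279 ± 0.0748 RPKM in PreIR-NTN, 0.271 ± 0.101 RPKM in PreIR-GFP and 0.228 ± 0.0516 RPKM in NonIR. Auxiliary subunits (7 members, 4 tested) summed to 16.1 ± 5.12, 13.3 ± 4.79 and 10.9 ± 2.14 RPKM in the same groups. Most of this was Cacnb3, a beta subunit that brings pores to the membrane, at 14.6 ± 5.13 RPKM in PreIR-NTN, 12.1 ± 4.93 RPKM in PreIR-GFP and 9.68 ± 2.24 RPKM in NonIR. Its libraries spread widely within each group, from 36.1 to 83.1 CPM in PreIR-NTN, 26.4 to 69.1 CPM in PreIR-GFP and 28.7 to 45.7 CPM in NonIR. The log2 fold change of 0.59 (SE 0.37) for PreIR-NTN against NonIR did not pass (adjusted p = 0.739, edgeR).

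Cacnb2, another beta subunit, had 2.44, 4.22, 5.30, 4.13 and 8.49 CPM in PreIR-NTN 1 to 5, against 1.31, 0.792, 3.36, 0.674 and 3.74 CPM in PreIR-GFP 1 to 5. NonIR 1 to 3 had 2.74, 3.97 and 1.06 CPM. PreIR-NTN 5 was the highest library and PreIR-GFP 1, 2 and 4 and NonIR 3 were low, with the others overlapping. PreIR-NTN against PreIR-GFP gave a log2 fold change of 1.31 (SE 0.51, adjusted p = 0.743, edgeR), and without PreIR-NTN 5 it was 1.02.

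TRP channels (14 members, 8 tested) summed to 7.94 ± 0.586 RPKM in PreIR-NTN, 7.96 ± 1.32 RPKM in PreIR-GFP and 7.47 ± 0.303 RPKM in NonIR. Trpm7, a magnesium- and zinc-permeable channel with a kinase domain, was the highest of them, at 4.00 ± 0.574, 3.85 ± 1.22 and 3.79 ± 0.335 RPKM in the same groups. Trpv4, which opens on cell swelling, had log2 fold changes of 0.54 (SE 0.28) for PreIR-NTN and 0.44 (SE 0.28) for PreIR-GFP against NonIR, with overlapping groups. Trpc1, a channel linked to store-operated calcium entry in salivary cells and named after its values were seen, had 39 reads in all 13 libraries and was not tested.

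Trpm2 (GRCm38 chr10:77907722-77970563, minus strand), a calcium-permeable channel opened by ADP-ribose and oxidative stress, had 3.73, 3.34, 2.04, 3.55 and 2.38 CPM in PreIR-NTN 1 to 5. In PreIR-GFP 1 to 5 it had 4.79, 6.20, 2.74, 6.41 and 4.58 CPM, and in NonIR 1 to 3 it had 3.15, 2.62 and 2.78 CPM. PreIR-GFP 1, 2, 4 and 5 were above every library of the other groups, and PreIR-GFP 3 was among them. PreIR-GFP against NonIR gave a log2 fold change of 0.79 (SE 0.28, adjusted p = 0.428, edgeR). For PreIR-NTN against PreIR-GFP it was -0.71 (SE 0.23, adjusted p = 0.627, edgeR), the lowest adjusted p of any member there, and for PreIR-NTN against NonIR it was 0.08 (SE 0.28). Without PreIR-GFP 1 and 5, a choice made after seeing the data, the values with PreIR-GFP were 0.84 against NonIR and -0.75 in PreIR-NTN against it.

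Trpv2, a channel abundant in macrophages, had 1.65, 1.64, 0.978, 1.74 and 1.51 CPM in PreIR-NTN 1 to 5, against 1.60, 2.38, 1.64, 2.70 and 3.09 CPM in PreIR-GFP 1 to 5. NonIR 1 to 3 had 2.46, 2.53 and 1.14 CPM. PreIR-GFP 2, 4 and 5 were above all PreIR-NTN libraries and the others overlapped. The log2 fold change for PreIR-NTN against PreIR-GFP was -0.60 (SE 0.27, adjusted p = 0.806, edgeR).

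Macrophage and fibroblast markers were the 2 of 15 marker sums that separated PreIR-NTN from PreIR-GFP, and both were lower in PreIR-NTN. The 6 macrophage markers summed to 51.5 to 73.5 CPM in PreIR-NTN, 81.6 to 163 CPM in PreIR-GFP and 72.1 to 84.2 CPM in NonIR, and all 6 had reads. Of them, 6 of 6 had a log2 fold change below 0 for PreIR-NTN against PreIR-GFP and 5 of 6 above 0 for PreIR-GFP against NonIR, with none past the test. The highest sums held much Lyz2, at 70.7 and 69.6 CPM in PreIR-GFP 1 and 5, and Adgre1, at 52.9 CPM in PreIR-GFP 5. Adgre1 did not overlap between PreIR-NTN (7.33 to 9.72 CPM) and PreIR-GFP (12.8 to 52.9 CPM). Csf1r, Cd68, Lyz2, Mrc1 and C1qa did overlap. The 6 fibroblast markers summed to 138 to 187 CPM in PreIR-NTN, 232 to 369 CPM in PreIR-GFP and 228 to 270 CPM in NonIR, so PreIR-NTN lay below both other groups. All 6 had a log2 fold change below 0 for PreIR-NTN against PreIR-GFP, and Dpt passed, at -1.33 (SE 0.18, adjusted p = 0.0175, edgeR). The part of either marker list in the Trpm2 and Trpv2 values was not tested.

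**Figure D4:**
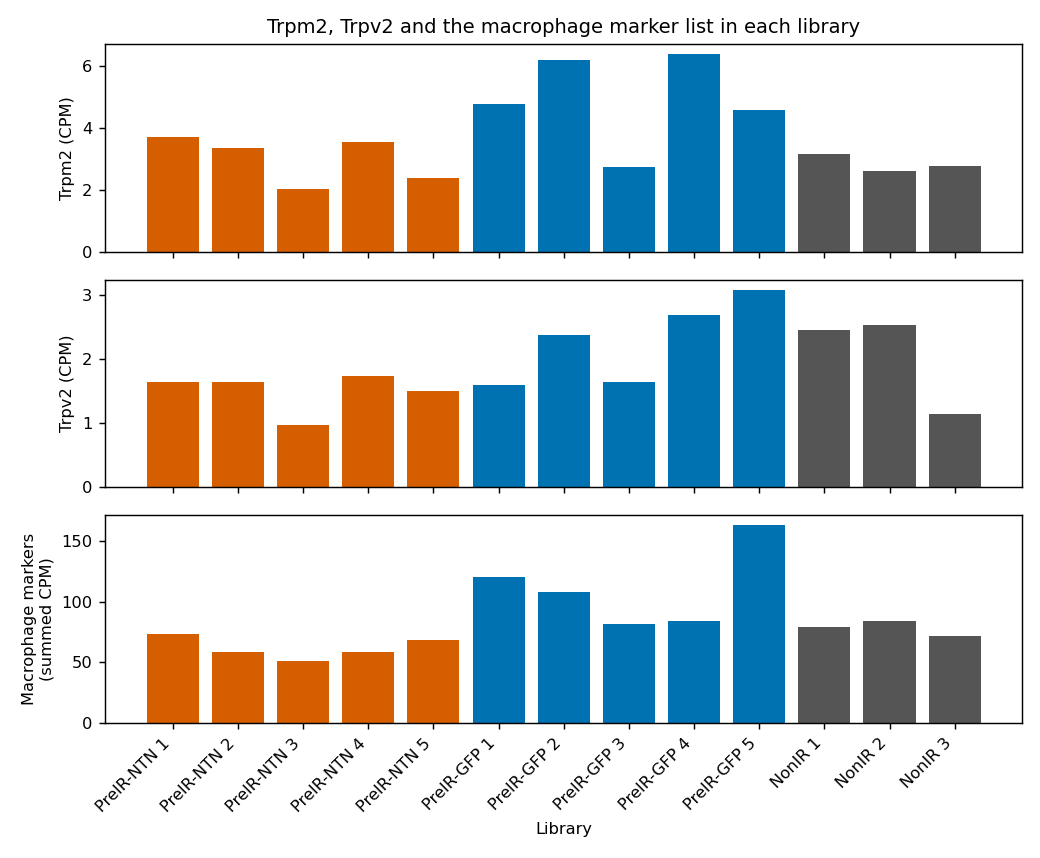
CPM of Trpm2 (top) and Trpv2 (middle) and the summed CPM of 6 macrophage markers (bottom) in each of the 13 libraries (x axis, coloured by group; PreIR-NTN, PreIR-GFP, NonIR). PreIR-GFP 3 has the lowest value of its group for Trpm2 at 2.74 CPM and for the markers at 81.6 CPM, while the highest Trpm2 library, PreIR-GFP 4 at 6.41 CPM, has 84.3 CPM of markers.

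The 33 members that were not tested had 9 to 118 reads each over all libraries, at most 27 reads in any library and at most 1.96 CPM, and 24 of them had 0 reads in at least 1 library. They cover 11 of the 17 voltage-gated potassium genes and 6 of the 14 TRP genes, but none of the CLC genes. Their summed level was 15.2 CPM in PreIR-GFP 1 and 5.87 to 9.20 CPM in the other 12 libraries. PreIR-GFP 1 was the highest library for 18 of the 86 members, of which 11 are among the untested, while each other library was highest for 2 to 10 members. All entries of the normalised table reach 6 reads in some library, so a low gene can be a member through 1 library alone. Trpm6, chosen after its values were seen, had 9 reads in PreIR-GFP 1 and at most 2 in any other library. The same share over all genes was not worked out, so these counts show no trait of channel genes.

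**Figure D5:**
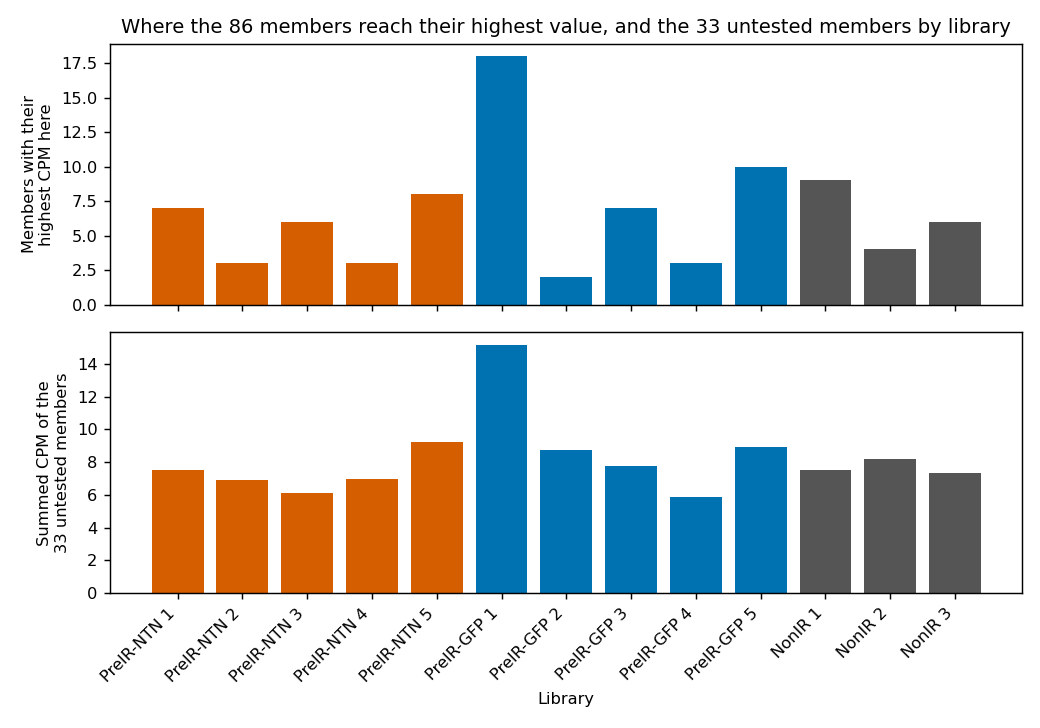
For each library (x axis, coloured by group), the number of the 86 members with their highest CPM there (top) and the summed CPM of the 33 untested members (bottom). PreIR-GFP 1 is the highest in both, with 18 members and 15.2 CPM; the same share over all genes was not worked out.

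Channel genes outside the name rule gave the same count of calls. Of 19 tested chloride and volume channel genes, 7 potassium channel partners and 19 genes of calcium entry and release, 0 passed in any comparison by edgeR. Without adjustment, edgeR gave a p under 0.05 for 3 of 19, 1 of 7 and 3 of 19 in PreIR-GFP against NonIR, for 2, 1 and 4 in PreIR-NTN against NonIR, and for 1, 0 and 1 in PreIR-NTN against PreIR-GFP. Over all genes tested the shares were 8.78%, 7.97% and 6.08% in that order of comparisons. Clic6, an intracellular chloride channel family gene, had the lowest p of them, at 5.93 ± 1.13 CPM in PreIR-NTN, 4.63 ± 1.34 CPM in PreIR-GFP and 10.3 ± 1.77 CPM in NonIR (adjusted p = 0.117 for PreIR-GFP against NonIR, edgeR). In calcium entry and release, 17 of 19 genes had a log2 fold change above 0 for PreIR-GFP against NonIR and 14 of 19 for PreIR-NTN against NonIR, beside 52.7% and 50.5% of all genes. The chloride and volume list had 8 of 19 and 4 of 19 above 0, and the potassium partners 4 of 7 and 5 of 7. For PreIR-NTN against PreIR-GFP it was 8 of 19 for calcium, 8 of 19 for chloride and 5 of 7 for the partners, beside 47.3% of all genes.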

How the data were processed

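Per the labels' protocols, cDNA was made with SMART-Seq v4 and libraries with Nextera XT, a kit that does not mark strand, and sequenced on a NextSeq instrument. The submitters' processing notes name STAR 2.5.2a, the build GRCm38.p3 (mm10), DESeq2, edgeR and limma, with no role for any. Which tool counted the reads is not given in the sources used. The series description differs from the labels in instrument and number of replicates; the labels were followed. The authors deposited raw read counts per gene for 48709 genes and 24 other entries, which held at most 5.85e-05% of reads and were left out of library sizes. The authors also deposited a normalised signal, each library's counts times 1 constant, for 17957 entries, all of which reach 6 reads in some library.

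Counts were filtered with filterByExpr by group, which left 14727 genes, scaled by TMM (factors 0.768 to 1.42) and tested with edgeR 4.0.16 (R 4.3.3) by the quasi-likelihood F test, robust, 1 mean per group, all 13 libraries, two-sided, Benjamini-Hochberg adjustment over all genes and a threshold of 0.05. The common dispersion was 0.0700, with 10 residual degrees of freedom. Standard errors were derived from the fold change and F. Exon lengths, coordinates and overlaps came from GENCODE mouse release 21 (GRCm38). Alternatives were other scalings, DESeq2 1.42.0, limma 3.58.1 (voom, and the deposited signal as log2 of value plus 0.5), other filters, only the groups compared, a replicate block and each library left out. Named members were those past adjustment, the 10 lowest p of each comparison, the 15 highest levels and 3 on each side of the filter edge; a few of these are not reported here. Members, lists and tests were chosen with earlier results of these data known. The limit of up to 3 reads for the EGFP and AAV2 entries covers counting error only, since PCR reads without molecular identifiers are not independent molecules.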

Additional observations from a re-analysis of the deposited data

Results flagged for a closer look

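In 3 of 62 groups of 5 libraries examined for named members, 1 library lay far from the other 4 of its group; chance alone marks about 1 in 20 groups. Kcnrg, a gene named as a potassium channel regulator, had 1.89 CPM in PreIR-GFP 1 and 0.313 to 0.726 CPM in the other 4 PreIR-GFP libraries. Kcnmb2 had 0.872 CPM in PreIR-NTN 5 and 0.117 to 0.326 CPM in the other 4 PreIR-NTN libraries. Kcnh1 had 4.28 CPM in PreIR-GFP 5 and 1.58 to 2.19 CPM in the other 4 PreIR-GFP libraries. Kcnrg and Kcnmb2 rest on 101 and 74 reads in all 13 libraries.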

How the results depend on the processing

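Of 30 fold changes of named members (the 10 lowest p of each comparison), 29 kept their sign and their side of the threshold in all alternatives, 684 in total over the 30, and none changed sign; the exception was Kcnk5 for PreIR-GFP against NonIR, with an adjusted p of 0.0167 in DESeq2. DESeq2 therefore called 1 member in that comparison and 0 in the others. At an unadjusted p under 0.05 it had 6 members for PreIR-GFP against NonIR, 2 for PreIR-NTN against NonIR and 6 for PreIR-NTN against PreIR-GFP. Of all 14727 genes tested, 1234, 1137 and 866 were under that unadjusted p in DESeq2, in the same order. Leaving out each library in turn gave 0 to 0 members called in each comparison (edgeR), with 4 to 9, 1 to 5 and 4 to 8 at an unadjusted p under 0.05, in the order PreIR-GFP against NonIR, PreIR-NTN against NonIR, PreIR-NTN against PreIR-GFP. Among all genes tested in those fits, 1017 to 1648, 759 to 1356 and 678 to 1170 were under that unadjusted p, in that order. Counts over all genes were less stable, and the cause was not tested. For PreIR-GFP against NonIR, 5 genes called became 68 with DESeq2, 20 with no filter, 1 without PreIR-GFP 1 and 5 (added after seeing the data), and 0 with upper-quartile scaling (1259 at an unadjusted p under 0.05), limma-voom (1143), only the 2 groups compared (1007) or limma on the deposited values (1218). For PreIR-NTN against NonIR, 3 became 31 with DESeq2, 1 with limma-voom and 5 without PreIR-GFP 1 and 5. For PreIR-NTN against PreIR-GFP, 3 became 39 with DESeq2, 10 with no filter, and 0 with limma-voom (833), only the 2 groups compared (815) or without PreIR-GFP 1 and 5 (1104). Leaving out each library gave 0 to 17, 0 to 4 and 0 to 11 genes in that order, with 17 without PreIR-GFP 1 and 11 without PreIR-GFP 4. Replicate numbers gave no sign of pairing the libraries: of 11 same-number pairs across groups, 3 had deviations correlated above 0.1 (range -0.43 to 0.28). Pairs with other numbers ran from -0.50 to 0.53, so this check cannot show that no pairing or shared batch exists. With the replicate block edgeR called 0 genes in each comparison (1084, 879 and 691 at an unadjusted p under 0.05) and 0 members (7, 2 and 7). Depth limits the 33 untested members, none with more than 27 reads in a library.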
